A study of Mus musculus with 86 samples.

Results

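The comparison concerns the cytokeratin-stained areas of mouse back skin 24 h after UVB light, in the epidermis and in the deep dermis below it. It rests on 12 segments, the microscope areas from which RNA was counted, of 85 tissue segments in the series. The 12 were taken by their labels alone: 24 h, PanCK-positive, and placed in the epidermis (6 segments) or in the deep dermis (6 segments), with 2 segments a layer from each of the mice numbered 208, 210 and 219. The question asked of them is which differences between the layers were still there, had gone or had newly appeared, measured against the 14 PanCK segments of the same mice at 0 h (8 epidermal and 6 deep dermal).

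GeoMx digital spatial profiling counts barcodes cut by light from probes bound to RNA in chosen areas of a tissue section. All the mice were wild-type C57BL/6 females of 12 to 16 weeks whose shaved back received 1 UVB dose of 500 mJ/cm2 (290 to 320 nm) under isoflurane. Skin was biopsied at 0, 6 and 24 h, and no group of unexposed skin at 6 or 24 h is named, so time after UVB and time after shaving and anaesthesia cannot be told apart. All the segments carry the same scan number. Within each biopsy, areas were divided by stain into PanCK-positive (epithelial) and CD45-positive (leukocyte) parts. The groups compared are therefore PanCK epidermis at 24 h and PanCK deep dermis at 24 h, then PanCK epidermis at 0 h and PanCK deep dermis at 0 h, with the 6 h pair in between.

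Pan-cytokeratin antibodies stain keratins, the intermediate filaments of epithelial cells. In skin they mark the stratified keratinocytes of the epidermis and, below it, the epithelium of hair follicles and their glands. UVB is absorbed mostly in the epidermis, where it damages DNA and starts a stress and inflammatory response in keratinocytes over the following hours to days. Probes stand here under their identifiers, because the sources used here pair none of them with a gene. No role can therefore be given for any probe, and the epithelial label was not checked against keratin genes. In tissue areas of this kind, fewer cells of a type and less RNA per cell cannot be told apart.

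At 24 h the summed counts per mouse were 86613, 111738 and 99358 in epidermis and 58790, 190198 and 98441 in deep dermis (mice 208, 210 and 219). At 0 h they were 200430, 433425 and 429239 in epidermis and 113948, 153794 and 59950 in deep dermis, so the 0 h epidermis was the most deeply counted group. A set of 5000 scarce probes, chosen in CD45 areas of the deep dermis and adipose layer and called floor probes here, served as a gauge of background. They took 17.1, 17.4 and 16.0% of the counts in 24 h epidermis, against 11.7, 11.1 and 12.2% in 24 h deep dermis. At 0 h the shares were 9.01, 10.7 and 10.8% in epidermis and 12.1, 11.6 and 12.1% in deep dermis. The floor share of the 24 h epidermis thus stood above every other PanCK sum, while the 100 most abundant probes held 9.75% of its counts in the mean (SD 0.918, n = 3), against 19.3% in 0 h epidermis (SD 2.25, n = 3). The sources used here do not say whether the floor probes are negative controls.

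**Figure D1:**
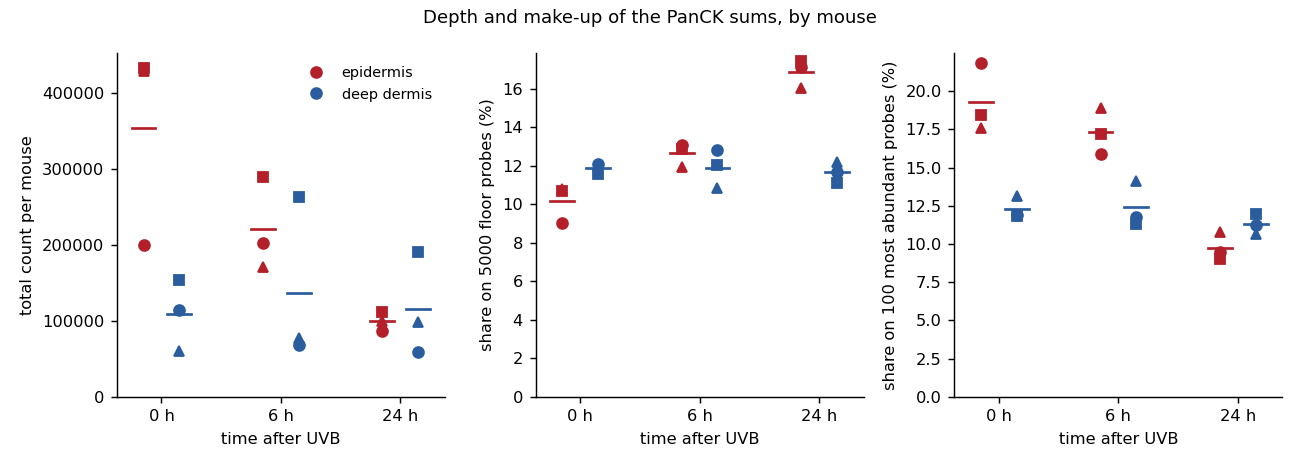
Total count (left), share of counts on the 5000 floor probes (middle) and share on the 100 most abundant probes (right) in each PanCK sum, by time after UVB. Points are mice (circle 208, square 210, triangle 219), bars are means, red is epidermis and blue is deep dermis. The floor share of 24 h epidermis (16.0 to 17.4%) lies above that of all other PanCK sums.

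The epidermis and the deep dermis still differed at 24 h, with most calls on other probes than at 0 h. Of 4268 probes tested, 391 (9.16%) differed between the layers at 24 h, 172 (4.03%) being higher in epidermis and 219 (5.13%) higher in deep dermis. At 0 h 642 (15.0%) differed, 335 (7.85%) higher in epidermis and 307 (7.19%) higher in deep dermis. Called in the same direction at both times were 47 probes, which is 12.0% of the 24 h calls and 7.32% of the 0 h calls, and 38 were called in opposite directions. A call at 1 time alone does not show a change. Of the 642, 332 were called at 0 h alone with no called change, 258 of them with the same sign at 24 h. Of the 391, 131 were called at 24 h alone with no called change. Counts were summed over the segments of a mouse and layer, and a call is a Benjamini-Hochberg adjusted p under 0.05 in edgeR's quasi-likelihood test on the 18 PanCK sums, with the biopsy as a block. Differences are log2 ratios of epidermis over deep dermis after TMM scaling, which sets the bulk of the probes to no difference.

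The change of the layer difference was itself tested. It was called for 548 probes (12.8%): 243 (5.69%) shifted toward epidermis by 24 h and 305 (7.15%) toward deep dermis. From these tests each probe was placed in a class, and the classes are descriptions of the calls with no further test. A difference was kept where it was called at both times in 1 direction. It was lost where it was called at 0 h, not called at 24 h, and the change was called, and new where it was called at 24 h, not called at 0 h, and the change was called. It was reversed where it was called at both times in opposite directions. By these rules 47 differences were kept, 225 lost, 175 new and 38 reversed. A further 332 called at 0 h alone and 131 called at 24 h alone had no called change. They are counted as unresolved, since a missed call does not show that a difference had gone.

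Across all 4268 probes the 24 h layer difference had little relation to that of 0 h (Pearson r = 0.0863, Spearman rho = -0.0434), while the 6 h difference followed that of 0 h (r = 0.666, rho = 0.469). These correlations are across probes, which are not independent replicates, and they are given as a description. The 2 times share no biopsy. Within 24 h, the layer differences of pairs of mice correlated at 0.225 to 0.342, and within 0 h at 0.371 to 0.579. The 24 h difference of a mouse correlated with its own 0 h difference at 0.0394 to 0.113, below every pair of different mice at 1 time. With every sum thinned to 58790 counts, 1057 probes could be tested, r between 24 h and 0 h was 0.260 and between 6 h and 0 h 0.792, and 160 probes were called at 24 h and 289 at 0 h.

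**Figure D2:**
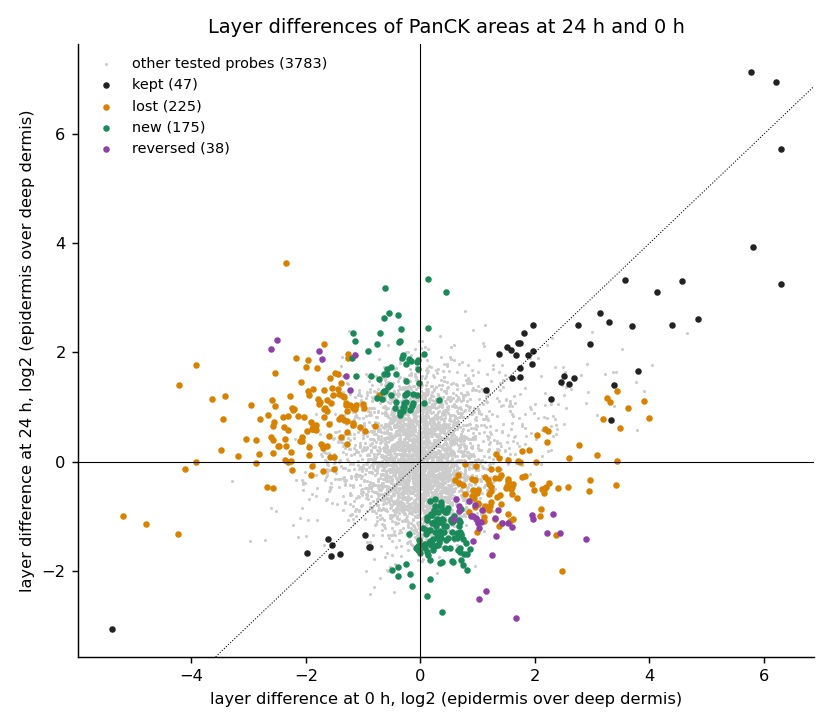
Layer difference of each of the 4268 probes at 24 h (vertical axis) against 0 h (horizontal axis), both log2 of epidermis over deep dermis, with zero lines and a dotted line of equality. Coloured points are the 47 kept, 225 lost, 175 new and 38 reversed probes. Kept probes lie along the dotted line, lost probes lie far from the vertical zero line and near the horizontal one, and new probes the other way round.

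The split of the 24 h calls between the layers depends on the scaling. On the TMM scale the floor probes themselves had a layer difference of -0.17 (log2) at 0 h, 0.26 at 6 h and 0.97 at 24 h. When the sums were instead scaled to the floor probes, the median of all probes at 24 h moved by -0.98, 20 probes were called higher in epidermis and 1647 higher in deep dermis. At 0 h the same scaling gave 400 and 221, at 6 h 162 and 395, and for the change of the difference 55 toward epidermis and 1488 toward deep dermis. The directions below are therefore relative to the bulk of the tested probes. How many probes of a class stood above the floor level is given with it, and the part of background was not tested further.

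The number of calls leans on mouse 210, the most deeply counted at 24 h in both layers. Without mouse 210, 45 probes were called at 24 h and 92 for the change. Without mouse 208, 192 were called at 24 h and 255 for the change, and without mouse 219, 232 and 409. DESeq2's test called 191 at 24 h and 241 for the change. When log values were averaged over segments in place of summed counts, limma called 2 at 24 h and 1 for the change, although 996 and 828 had an unadjusted p under 0.05, and it called 3 of the 16 probes named by rule below.

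Of the 47 kept differences, 38 were higher in epidermis and 9 higher in deep dermis. This split rests on the scaling and the filter, being 14 and 64 under floor scaling and 13 and 14 with no filter. The median difference of the 38 was 2.12 (log2) at 24 h and 2.65 at 0 h, against 0.01 and 0.00 over all tested probes. The change was called for 8 of the 38, and in 7 of these the difference had become smaller. Their summed share was lower in 24 h than in 0 h epidermis all the same. The 38 probes held 2.31, 1.62 and 2.85% of the counts in 24 h epidermis (mice 208, 210 and 219), against 0.306, 0.222 and 0.315% in 24 h deep dermis. At 0 h they held 7.69, 6.41 and 6.31% in epidermis and 0.352, 0.304 and 0.385% in deep dermis. The epidermal share at 24 h was below all 3 mice at 0 h but above every deep dermal sum, and single 24 h epidermal segments varied between 0.441 and 4.12%. The calls that chose these probes largely fix which layer held the larger share. RTS0069791 alone makes up the larger part of the share in 24 h epidermis in every mouse. Of the 38, 35 stood above 2 times the floor level in 24 h epidermis and 14 in 24 h deep dermis. In the fit of the epidermis alone, 18 of the 38 fell between 0 h and 24 h and 0 rose, while in deep dermis 1 fell. The whole table gave 399 falls (9.35%) and 435 rises (10.2%) in epidermis, or 834 (19.5%) in all.

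RTS0069791 and RTS0069790 had the smallest p of the kept epidermal differences. RTS0069791 measured 12585, 8368 and 16506 CPM (counts per 1000000 counts of the sum) in 24 h epidermis, against 68.0, 73.6 and 213 CPM in 24 h deep dermis. The layers were far apart in every mouse, with a difference of 7.14 (log2, SE 0.26, edgeR adjusted p = 2.05e-22) at 24 h and 5.77 (SE 0.23) at 0 h. At 0 h it had measured 32321, 25624 and 24527 CPM in epidermis and 570.4, 293 and 834 CPM in deep dermis. Both layers had thus come down, the deep dermis by more, and the difference had grown by 1.37 (SE 0.33, adjusted p = 0.00471), the single kept difference with a called growth. RTS0069790 measured 1432, 1647 and 1761 CPM in 24 h epidermis, against 17.0, 15.8 and 20.3 CPM in 24 h deep dermis, which is below the floor level of 23.3 CPM there. Its difference was 6.95 (SE 0.33) at 24 h and 6.22 (SE 0.27) at 0 h, and the change of 0.73 (SE 0.53) was not called (adjusted p = 0.395 by edgeR).

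The 9 kept differences toward deep dermis had a median of -1.57 at 24 h and -1.54 at 0 h, and 5 of the 9 stood above 2 times the floor level in 24 h epidermis and all 9 in 24 h deep dermis. RTS0063680 measured 150.1, 116 and 111 CPM in 24 h epidermis, against 476, 584 and 437 CPM in 24 h deep dermis. Every deep dermal value exceeded every epidermal one, and the difference was -1.57 (log2, SE 0.31, adjusted p = 0.00114, edgeR) at 24 h and -0.91 (SE 0.29) at 0 h. It was not called at 24 h without mouse 210. RTS0064000 measured 23.1, 26.8 and 10.1 CPM in 24 h epidermis, against 919, 57.8 and 10.2 CPM in 24 h deep dermis. At 0 h its deep dermal excess was the widest of all tested probes, at 89.8, 60.0 and 37.3 CPM in epidermis and 2694, 3706 and 1601 CPM in deep dermis. Only mouse 208 still showed a wide gap, and in mouse 219 the layers were level at 24 h. This kept call (-3.07, SE 0.64, adjusted p = 0.00182, edgeR) rests on mouse 208, without which the value was -0.41 (adjusted p = 0.826), and it was missed under 3 of 12 alternatives.

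Of the 225 lost differences, 97 had been higher in epidermis at 0 h and 128 higher in deep dermis. The majority lay on the other side under floor scaling (144 epidermal and 45 deep dermal), with no filter (141 and 64) and without mouse 210 (39 and 14). For the 128, the median difference was -1.90 (log2), -1.08 and 0.77 at 0, 6 and 24 h. Their share of counts was 0.850, 0.945 and 0.685% in 24 h epidermis, against 1.11, 0.641 and 0.751% in 24 h deep dermis, so that the layers overlapped. At 0 h it was 1.05, 0.724 and 1.01% in epidermis and 3.97, 3.79 and 3.98% in deep dermis. The movement lay mostly in deep dermis: 105 of the 128 fell there between 0 h and 24 h and 0 rose, where the whole table gave 518 calls in deep dermis (12.1%), 322 falls (7.54%) and 196 rises (4.59%). In the epidermis 18 rose and 6 fell. Of the 128 probes, 60 were still above 2 times the floor level in 24 h deep dermis, all 128 having been so at 0 h, and 39 were above it in 24 h epidermis. Over all tested probes 3546 of 4268 were above it in 24 h deep dermis and 1771 in 24 h epidermis.

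RTS0074147 and RTS0075358 lost the deep dermal excess with the smallest p. RTS0074147 measured 34.6, 71.6 and 60.4 CPM in 24 h epidermis, against 34.0, 21.0 and 20.3 CPM in 24 h deep dermis, and 9.98, 32.3 and 9.32 CPM in 0 h epidermis, against 377, 377 and 167 CPM in 0 h deep dermis. The difference was 1.77 (SE 0.66, not called, edgeR adjusted p = 0.081) at 24 h and -3.91 (SE 0.39) at 0 h, a change of 5.68 (SE 0.78, adjusted p = 4.36e-06, edgeR). It was called under all 12 alternatives. RTS0075358 measured 34.6, 44.7 and 20.1 CPM in 24 h epidermis, against 17.0, 15.8 and 20.3 CPM in 24 h deep dermis. At 0 h it had measured 24.9, 13.8 and 11.6 CPM in epidermis and 421, 338 and 217 CPM in deep dermis. Its change was 5.62 (SE 0.84, adjusted p = 1.27e-05, edgeR). The floor level at 24 h was 33.7 CPM in epidermis and 23.3 CPM in deep dermis, so the 24 h deep dermal values of both probes lie at about background. In 0 h epidermis, where the floor level was 20.4 CPM, both probes lay near it as well. The 24 h epidermal values of RTS0075358 also lay near the floor level.

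For the 97 probes that lost an epidermal excess, the median difference was 1.53, 1.01 and -0.43 at 0, 6 and 24 h. Their share was 1.67, 1.55 and 1.74% in 24 h epidermis, against 2.84, 2.71 and 2.49% in 24 h deep dermis. At 0 h the shares were 6.43, 6.09 and 5.09% in epidermis and 1.91, 2.41 and 2.04% in deep dermis. On this unscaled measure the deep dermis was the higher layer in every mouse at 24 h and the epidermis in every mouse at 0 h. The 0 h calls that chose these probes largely fix the 0 h order. In the epidermis 75 of the 97 fell and 0 rose, and in deep dermis 17 rose and 4 fell. Of the 97, 70 stood above 2 times the floor level in 24 h epidermis and 93 in 24 h deep dermis.

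RTS0065415 measured 589, 197 and 584 CPM in 24 h epidermis, against 765, 605 and 782 CPM in 24 h deep dermis. It had measured 2036, 1440 and 1421 CPM in 0 h epidermis, against 140.4, 273 and 234 CPM in 0 h deep dermis. Both layers moved toward each other: the epidermis fell by 1.56 (log2, SE 0.30) and the deep dermis rose by 1.61 (SE 0.33), and the layer difference changed by -3.30 (SE 0.38, adjusted p = 1.62e-07, edgeR). RTS0064616 measured 162, 89.5 and 131 CPM in 24 h epidermis, against 663, 73.6 and 203 CPM in 24 h deep dermis, and 918, 1084 and 1302 CPM in 0 h epidermis, against 132, 195 and 83.4 CPM in 0 h deep dermis. Its difference had been 2.95 (SE 0.30) at 0 h and 4.20 (SE 0.36) at 6 h. The change by 24 h was -3.49 (SE 0.47, adjusted p = 2.80e-06, edgeR), with the epidermis falling by 2.77 (SE 0.28). In deep dermis its 24 h values spread widely, mouse 208 being the highest.

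New differences were found for 175 probes, 62 higher in epidermis and 113 higher in deep dermis. The split was 2 and 1041 under floor scaling, 19 and 336 with no filter and 45 and 9 at equal depth. Without mouse 210, 6 were new (4 and 2), without mouse 208 68 (19 and 49). The 62 had a median difference of -0.36 at 0 h, 0.37 at 6 h and 1.57 at 24 h. They held 3.24, 3.68 and 3.78% of the counts in 24 h epidermis, against 1.96, 2.10 and 2.45% in 24 h deep dermis. At 0 h the shares were 2.65, 2.16 and 2.55% in epidermis and 2.88, 2.24 and 2.62% in deep dermis, slightly lower in epidermis in each mouse. The epidermis accounted for most of the movement: 49 of the 62 rose there and 0 fell, while 10 fell in deep dermis and 0 rose. After the mean floor level was subtracted from each group, all 62 were still higher in epidermis at 24 h, against 990 of 4268 tested probes. All 172 probes called higher in epidermis at 24 h passed this check too, so it adds nothing to the call. Of the 62, 57 stood above 2 times the floor level in 24 h epidermis, against 160 of the 172 and 1771 of 4268 over all tested probes.

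RTS0067336 measured 1640, 2255 and 1912 CPM in 24 h epidermis, against 697, 852 and 884 CPM in 24 h deep dermis. The layers did not overlap at 24 h, whereas at 0 h they were level within each mouse, at 2540, 1264 and 1128 CPM in epidermis and 2756, 1287 and 1251 CPM in deep dermis. The difference was 1.69 (log2, SE 0.19, adjusted p = 7.53e-08, edgeR) at 24 h, a change of 1.74 (SE 0.26, adjusted p = 1.59e-05) over 0 h. The deep dermis fell by 1.08 (SE 0.30, adjusted p = 0.0156, edgeR), while the epidermal change of 0.67 (SE 0.25, adjusted p = 0.0628) was not called. The change of 1.74 is itself the test of the 2 layers' changes against each other. Whether 1 layer moved further than the other was not tested. RTS0067799 measured 6246, 6497 and 6844 CPM in 24 h epidermis, against 4184, 4254 and 5374 CPM in 24 h deep dermis, and 1616, 3424 and 4070 CPM in 0 h epidermis, against 2642, 3674 and 3836 CPM in 0 h deep dermis. It rose in epidermis by 1.53 (SE 0.25), and its layer difference changed by 1.13 (SE 0.24, adjusted p = 0.00197, edgeR). With scaling to the floor probes the change of RTS0067799 was -0.01, so its direction rests on the scaling. It was also not called with no filter, by limma, without the replicate block (adjusted p = 0.0735, edgeR), without mouse 208 (0.129) or without mouse 210 (0.0523). The change of RTS0067336 was 0.58 under floor scaling (adjusted p = 0.174) and 1.00 with no filter (0.0852), neither of them called.

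The 113 new differences toward deep dermis had a median of 0.32 at 0 h, -0.11 at 6 h and -1.35 at 24 h. Their share was 1.86, 1.73 and 2.11% in 24 h epidermis, against 5.71, 6.62 and 5.70% in 24 h deep dermis, and 4.92, 4.21 and 3.92% in 0 h epidermis, against 3.84, 3.88 and 3.52% in 0 h deep dermis. The 24 h layers were apart in every mouse, the epidermis having been slightly higher in every mouse at 0 h. Single segments held 1.52 to 2.21% in the 6 epidermal and 5.05 to 6.71% in the 6 deep dermal ones at 24 h. The 113 were chosen from the sums of these 12 segments, so the gap at 24 h is no added support. Both layers contributed: 55 of the 113 fell in epidermis and 44 rose in deep dermis, with 1 rise in epidermis and 0 falls in deep dermis. All 113 stood above 2 times the floor level in 24 h deep dermis. So did all 219 probes called higher in deep dermis at 24 h and 3546 of 4268 tested probes. In 24 h epidermis 85 of the 113 did, against 148 of the 219 and 1771 of 4268. The deep dermis was higher in all 3 mice at 24 h for all 113, as it was for 1617 of 4268 tested probes. It was so for 218 of all 219 probes called higher in deep dermis at 24 h, so the call itself largely fixes this order.

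RTS0079340 measured 1663, 1342 and 1651 CPM in 24 h epidermis, against 7399, 6730 and 5404 CPM in 24 h deep dermis. At 0 h the layers had been close, at 6047, 5687 and 4764 CPM in epidermis and 5766, 6106 and 5638 CPM in deep dermis. The epidermis fell by 1.47 (log2, SE 0.23, adjusted p = 7.79e-05, edgeR) while the deep dermal change of 0.09 (SE 0.25) was not called, and the layer difference changed by -1.59 (SE 0.23, adjusted p = 7.68e-06). RTS0068813 measured 150.1, 179 and 131 CPM in 24 h epidermis, against 629, 825 and 589 CPM in 24 h deep dermis. It too had been level at 0 h, at 728, 517 and 457 CPM in epidermis and 588, 533 and 467 CPM in deep dermis, and its layer difference changed by -1.84 (SE 0.35, adjusted p = 0.000461, edgeR) with a fall in epidermis of 1.49 (SE 0.30). The change of RTS0068813 was not called at equal depth (-1.01, adjusted p = 0.096, edgeR) or by limma.

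**Figure D3:**
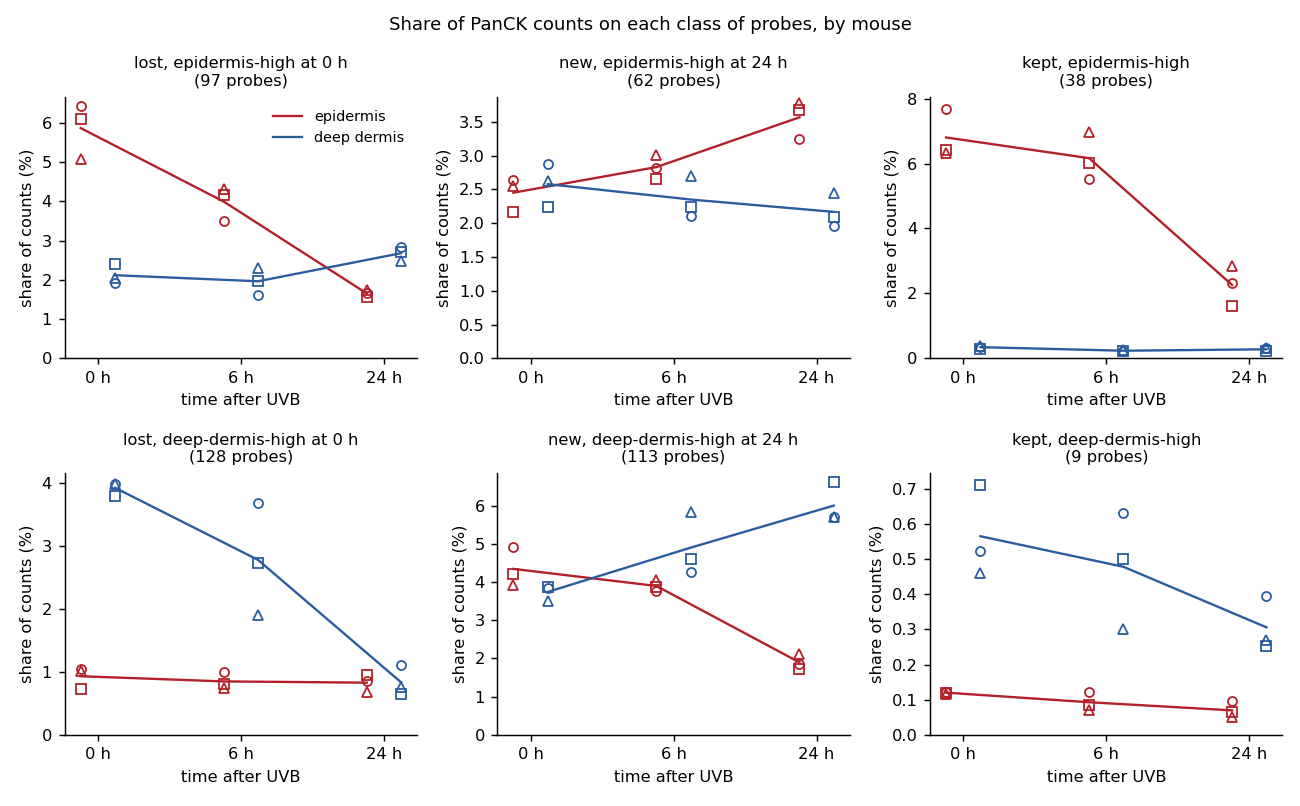
Share of the PanCK counts on the lost, new and kept probes at 0, 6 and 24 h, as percent of each sum. Open points are mice (circle 208, square 210, triangle 219), lines join the means, red is epidermis and blue is deep dermis. The lost pairs of lines meet or cross by 24 h, the new pairs lie closer together at 0 h than at 24 h, and the kept epidermal share falls in epidermis to 1.62 to 2.85% but stays above deep dermis.

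Of the 38 reversed differences, 7 were higher in epidermis at 24 h after being higher in deep dermis at 0 h, and 31 the other way. Under floor scaling the split was 0 and 163, and without mouse 210 it was 0 and 7. Of the 31, 29 stood above 2 times the floor level in 24 h epidermis and all 31 in 24 h deep dermis. For the 31 the share was 0.849, 0.779 and 0.905% in 24 h epidermis, against 2.51, 3.13 and 2.33% in 24 h deep dermis. At 0 h it was 2.99, 2.80 and 2.28% in epidermis and 1.18, 1.41 and 1.14% in deep dermis. The order of the layers was thus opposite in every mouse. The calls at both times that chose these probes largely fix this order, so it is no added support. In the epidermis 25 of the 31 fell, in deep dermis 19 rose, and 13 did both with calls in each layer. For the 7, deep dermis fell in 5 and epidermis rose in 4, and all 7 stood above 2 times the floor level in 24 h epidermis and 3 in 24 h deep dermis.

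RTS0068815 measured 693, 412 and 845 CPM in 24 h epidermis, against 2058, 2550 and 2194 CPM in 24 h deep dermis. At 0 h it had measured 2125, 2070 and 2141 CPM in epidermis and 211, 397 and 284 CPM in deep dermis. The layers had exchanged levels, the epidermis falling by 1.38 (SE 0.25) and the deep dermis rising by 2.85 (SE 0.33), and the layer difference changed by -4.30 (log2, SE 0.35, adjusted p = 5.35e-11, edgeR). RTS0081318 measured 92.4, 152 and 101 CPM in 24 h epidermis, against 1446, 2035 and 356 CPM in 24 h deep dermis, and 499, 567.6 and 305 CPM in 0 h epidermis, against 263, 156 and 33.4 CPM in 0 h deep dermis. Its change was -4.53 (SE 0.45, adjusted p = 9.58e-09, edgeR), and the 24 h deep dermal value of mouse 219 was well below those of the other mice.

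Among the 7 reversed toward epidermis, RTS0063286 measured 92.4, 62.6 and 50.3 CPM in 24 h epidermis, against 34.0, 10.5 and 20.3 CPM in 24 h deep dermis. At 0 h it had measured 20.0, 39.2 and 51.3 CPM in epidermis and 79.0, 241 and 350.3 CPM in deep dermis. The change was 4.74 (log2, SE 0.66, adjusted p = 5.06e-06, edgeR), with the deep dermis falling by 3.65 (SE 0.55) to about the floor level. RTS0065966 measured 139, 152 and 70.5 CPM in 24 h epidermis, against 68.0, 36.8 and 40.6 CPM in 24 h deep dermis, and 115, 90.0 and 158 CPM in 0 h epidermis, against 448, 215 and 684 CPM in 0 h deep dermis. Its change was 3.61 (SE 0.52, adjusted p = 8.50e-06, edgeR). The deep dermis fell by 3.19 (SE 0.42) and the epidermal change of 0.35 (SE 0.34) was not called.

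**Figure D4:**
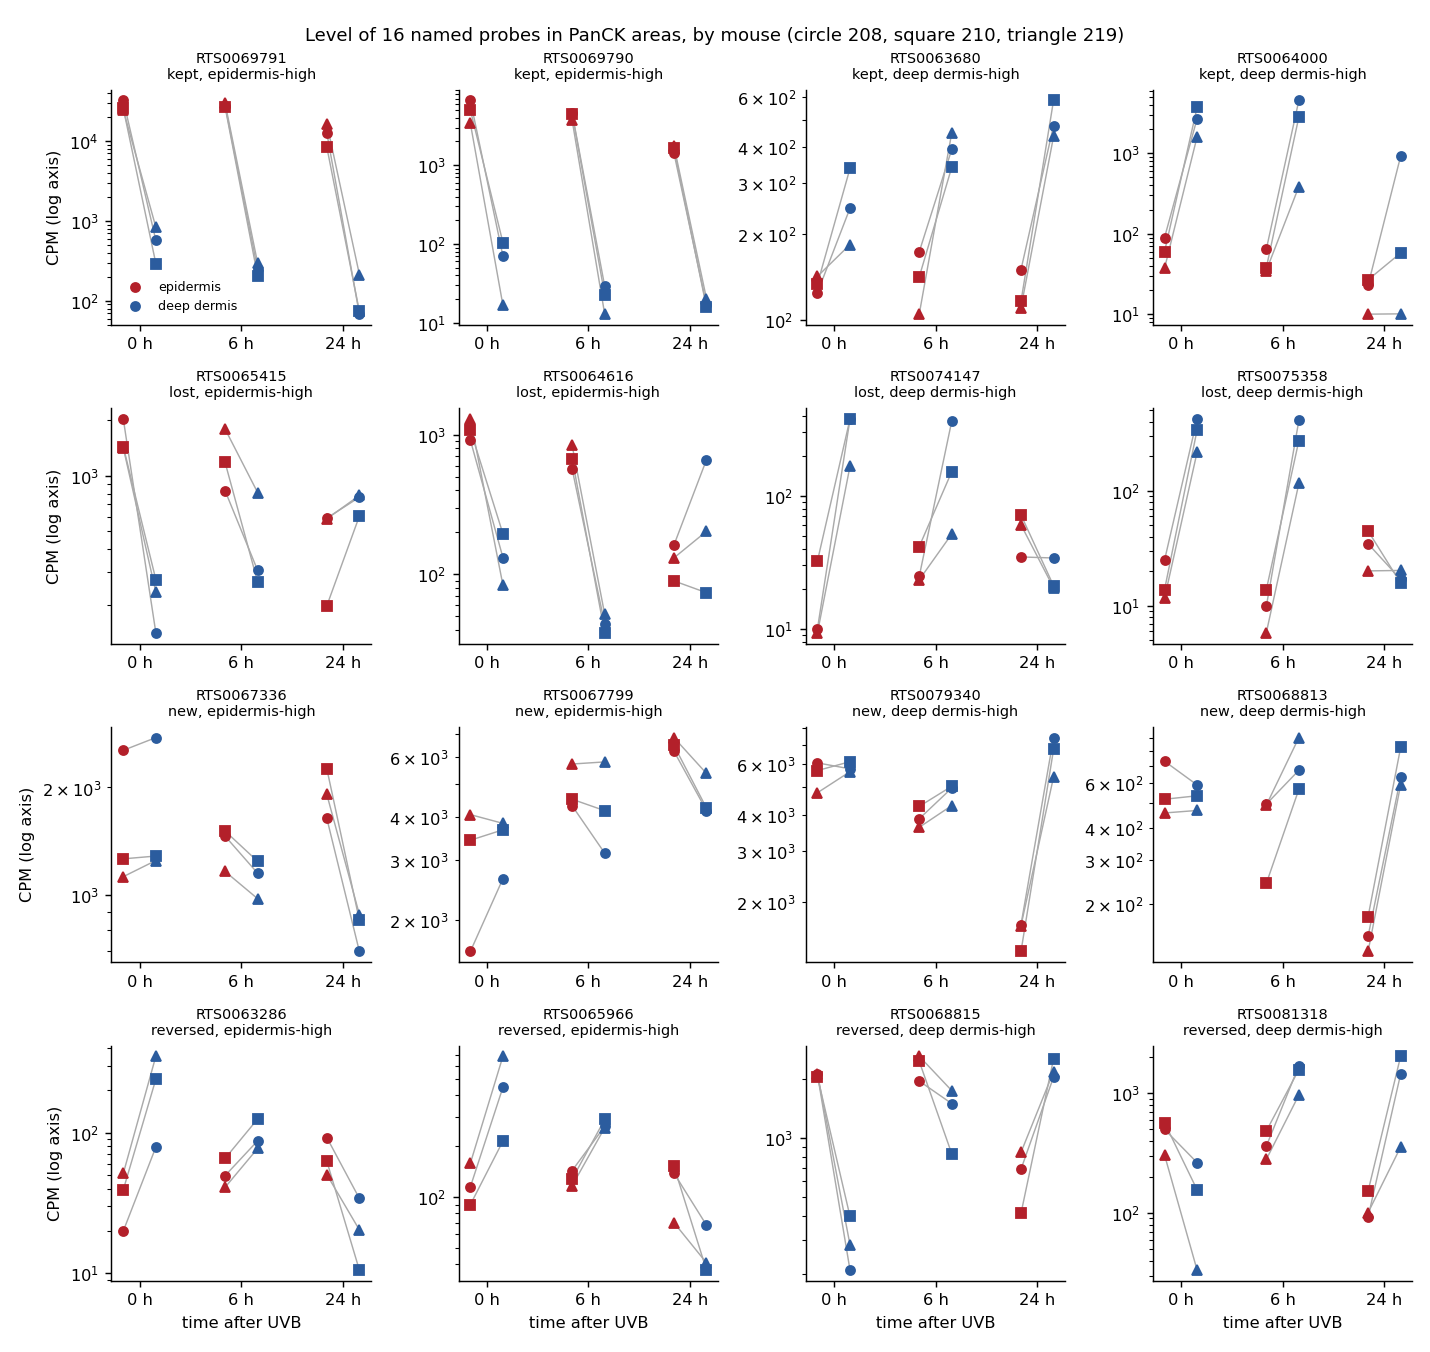
Level (CPM, log axis) of the 16 probes named by rule at 0, 6 and 24 h after UVB. Within each time red is epidermis (left) and blue is deep dermis (right), and a grey line joins the layers of a mouse (circle 208, square 210, triangle 219). The top row is kept, the second lost, the third new and the bottom row reversed, with the layer that was higher at 0 h for lost probes and at 24 h for the others.

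The lost and new probes were also placed by their change within each layer, where the class rules largely fix which layer moved up relative to the other. Probes that lost a deep dermal excess had a median change of -2.13 (log2, 24 h over 0 h) in deep dermis and 0.67 in epidermis. Those that lost an epidermal excess had a median of -1.28 in epidermis and 0.65 in deep dermis. For new epidermal differences the medians were 1.54 in epidermis and -0.60 in deep dermis, and for new deep dermal ones -0.85 in epidermis and 0.79 in deep dermis. The lost epidermal and new deep dermal medians thus lay near each other. The within-layer fits use the same counts as the layer differences, so they show where a change lay and are no separate evidence of it. They depend on the scaling as well: with each layer's own filter, 666 probes rose and 613 fell in epidermis by 24 h, against 97 and 2479 after scaling to the floor probes. In deep dermis these counts were 151 and 278, against 237 and 237.

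**Figure D5:**
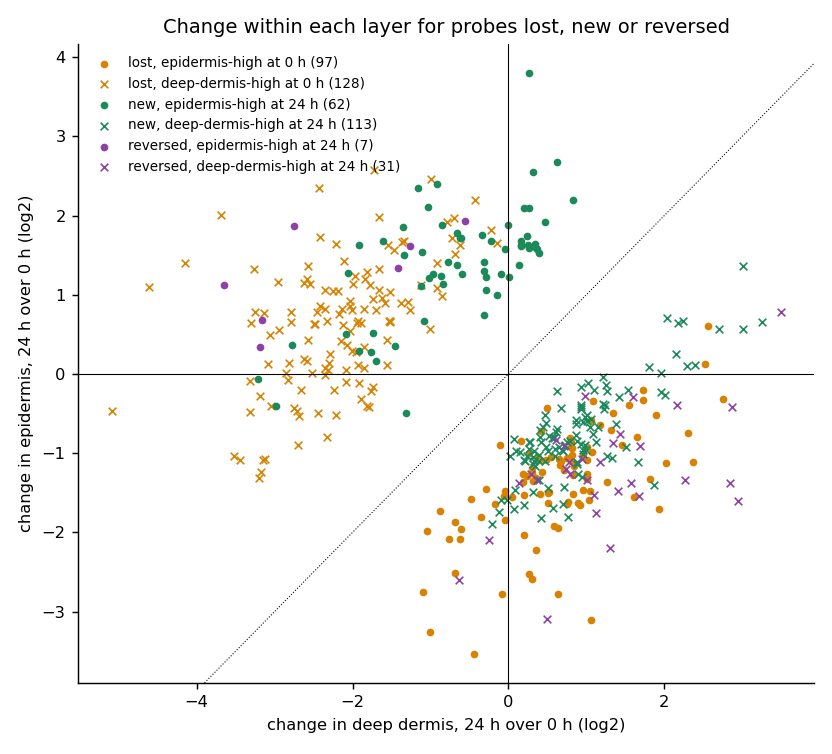
Change between 0 h and 24 h in epidermis (vertical axis) against the change in deep dermis (horizontal axis), both log2 of 24 h over 0 h, for the lost, new and reversed probes. Circles are probes higher in epidermis and crosses probes higher in deep dermis, at 0 h for lost and at 24 h for new and reversed ones, and the dotted line marks equal change in both layers. Lost deep dermal probes spread to the left (median -2.13 in deep dermis) and new epidermal probes upward (median 1.54 in epidermis).

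At 6 h 459 probes (10.8%) differed between the layers, 247 (5.79%) higher in epidermis and 212 (4.97%) higher in deep dermis, and 291 of them were also called at 0 h in the same direction, against 1 in the opposite one. With upper quartile scaling the 6 h split was 288 and 161. The change between 0 h and 6 h was called for 3 probes (0.0703%) by edgeR, all toward deep dermis, and 409 had an unadjusted p under 0.05. Floor scaling gave 29 such calls. The few calls do not show that the differences stayed as they were, since most changes planted in simulated data were not called. The medians of the lost classes given above were nearer to 0 at 6 h than at 0 h. These probes were chosen by their 0 h calls, which alone favours such a drop, so the medians do not show an early change. Of the 128 lost deep dermal differences, 57 were still called at 6 h in the 0 h direction, as were 51 of the 97 lost epidermal ones. Of the 175 new differences, 7 of the 62 epidermal and 13 of the 113 deep dermal ones were called at 6 h in the 24 h direction. Without mouse 219 the change at 6 h was called for 6 probes, and without mouse 208 for 1.

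The 3 probes called for a change at 6 h were RTS0068815, RTS0081318 and RTS0071276, the last named because the count is small and after its values were seen. RTS0071276 measured 309, 316 and 277 CPM in epidermis and 219, 377 and 117 CPM in deep dermis at 0 h. It measured 326, 387 and 257 CPM in epidermis and 2014, 1601 and 683 CPM in deep dermis at 6 h, and 254, 242 and 111 CPM in epidermis and 1412, 1667 and 223 CPM in deep dermis at 24 h. The deep dermis was the higher layer in all 3 mice at both later times. The layer difference changed by -2.26 (log2, SE 0.39, adjusted p = 0.00208, edgeR) at 6 h and by -2.22 (SE 0.42, adjusted p = 0.000492) at 24 h. RTS0081318 had changed by -3.39 (SE 0.40) at 6 h and RTS0068815 by -1.84 (SE 0.34).

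CD45 areas of the same layers, which took no part in the fit, give the level of these probes in leukocyte-stained tissue. In 24 h epidermis, 30 of the 62 new epidermal probes were higher in CD45 than in PanCK areas (48.4%), against 1783 of 4268 tested probes (41.8%), and their median level was 163 CPM in CD45 and 188 CPM in PanCK areas. RTS0067799 averaged 10045 CPM in CD45 epidermis at 24 h (SD 1105, n = 3) and 6529 CPM in PanCK epidermis (SD 300.1, n = 3). Of the 38 kept epidermal probes, 2 were higher in CD45 epidermis (5.26%), where RTS0069791 averaged 913 CPM (SD 609, n = 3). For the 113 new deep dermal probes, 7 were higher in CD45 than in PanCK deep dermis at 24 h, against 1471 of 4268 tested probes. Among all 219 probes called higher in deep dermis at 24 h, 13 were. The classes were chosen by the PanCK values that form 1 side of these comparisons. Low counts are therefore partly built in, and all tested probes are no matched background. The part of leukocyte RNA in the PanCK values was not tested.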

How the data were processed

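Counts of probe barcodes in GeoMx segments were deposited by the authors as whole numbers for each probe identifier in a segment. Per the file headers they come from GeoMx NGS Pipeline 2.3.3.10, and no normalization is recorded. The sources used here give neither panel, aligner nor genome build, and pair no probe identifier with a gene. In all, 20175 probes are listed. The no template control was not used.

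Segments of the same mouse, layer and time were added up (18 PanCK sums), since the mouse is the replicate. edgeR 4.0.16 (R 4.3.3) fitted the 18 sums with TMM scaling, filterByExpr at a minimum count of 10, the biopsy (mouse and time) as a block and the layer nested in time, and its quasi-likelihood F test gave p-values with Benjamini-Hochberg adjustment over 4268 probes. SE is the absolute fold change divided by the root of F. A second fit took the 3 times of a single layer, blocked by mouse, on the same probes (a choice made after seeing the data). CPM are counts per 1000000 counts of the sum.

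The pairing comes from the mouse numbers in the labels. As a check, deviations of the layers of 1 biopsy from their group means correlated at 0.0184 to 0.0745 (median 0.0517, n = 9 pairs) and those of different mice at a median of -0.0179. Whether an animal was biopsied serially is not stated. With the biopsy as a block, the layer fit takes out the level of each mouse at each time. Its p-values therefore rest on the scatter of the layer difference among these 3 mice, estimated jointly over all the times. They do not measure the spread of levels between mice, nor the scatter at 24 h alone.

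Probes are named by a rule: per class and direction, the 2 with the smallest p whose layer difference has the same sign in 3 of 3 mice. The members, classes and alternatives were chosen with earlier results of these data known. Alternatives were DESeq2's size factors, upper quartile scaling, scaling to 5000 floor probes, no filter and a filter at 2 times the floor level. Others were the test of DESeq2 1.42.0, limma 3.58.1 on mean log2(CPM + 1) over segments and sums thinned to equal depth. The rest were no replicate block and the omission of each mouse, which makes 12 alternatives. Besides these, the layer difference was fitted on 0 h alone (667 calls) and on 24 h alone (415 calls). The layer fit was tested on simulated data. Fitted sizes came back near those put in, but most planted changes were not called, so a change that is not called does not show that a difference stayed the same. Python 3.11.15 with pandas and matplotlib served for reading and plots.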

Additional observations from a re-analysis of the deposited data

Results flagged for a closer look

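Chance alone marks about 1 in 20 groups as holding a sample far from the rest, and 12 group measures were looked at. In PanCK epidermis at 6 h, 1 segment had a total of 199929 counts, far above the other 5. In PanCK deep dermis at 6 h, 1 segment had 197481 counts, also far above the rest. Both groups enter the fit of the 18 sums, and so bear on its filter, scaling and estimate of spread.

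The layer difference itself differed between 24 h and 0 h, by the test of the change, for 548 probes. Among those named, the lost differences changed by -3.30 (log2) for RTS0065415, -3.49 for RTS0064616, 5.68 for RTS0074147 and 5.62 for RTS0075358. The new differences changed by 1.74 for RTS0067336, 1.13 for RTS0067799, -1.59 for RTS0079340 and -1.84 for RTS0068813. The reversed ones changed by 4.74 for RTS0063286, 3.61 for RTS0065966, -4.30 for RTS0068815 and -4.53 for RTS0081318. At 6 h the difference of RTS0071276 had changed by -2.26. These probes were picked by their small p.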

How the results depend on the processing

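Counts that moved by over 1.5 times are given here. Under floor scaling there were 1667 calls at 24 h, 1543 for the change at 24 h, 29 for the change at 6 h, 78 kept, 1043 new, 163 reversed and 2576 in epidermis between 0 h and 24 h. Without a filter, 604 were called at 24 h, 27 were kept and 355 new. DESeq2's test called 191 at 24 h, 370 at 0 h and 241 for the change, with 24 kept, 115 lost, 61 new and 15 reversed. By limma on mean log values these counts were 2, 24, 1, 2, 1, 0 and 0, and the first 3 had 996, 550 and 828 probes with unadjusted p under 0.05. At equal depth they were 160, 289, 202, 34, 98, 54 and 20, of which the 34 kept are within 1.5 times. Tested on the probes of the layer fit, epidermis gave 834 calls against 1279 on its own filter. The cause of these moves was not tested, except that equal depth leaves fewer probes to test.

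Leaving out each mouse in turn gave 45 to 232 calls at 24 h, 358 to 537 at 0 h, 175 to 347 at 6 h, 92 to 409 for the change at 24 h and 1 to 6 at 6 h. It gave 17 to 28 kept, 53 to 176 lost, 6 to 123 new and 7 to 23 reversed, 567 to 765 calls in epidermis and 158 to 429 in deep dermis, the lowest values being without mouse 210 except for the change at 6 h, which was lowest without mouse 208. Without the replicate block, 400 were called at 24 h, 613 at 0 h and 458 for the change, with 46 kept, 189 lost, 154 new and 27 reversed, each within 1.5 times.

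Membership of the classes was less stable than the sign of the change, which the choice of members largely fixes. Without mouse 210, 34 of 225 lost, 6 of 175 new and 7 of 38 reversed probes stayed in their class, under floor scaling 59, 109 and 31, and by limma 1, 0 and 0. The 24 h difference of the lost probes kept its sign in 141 of 225 under floor scaling. New differences outnumbered lost ones under floor scaling (1043 and 189) and with no filter (355 and 205). For the 16 named probes, 168 of 192 repeats kept the call and 23 missed it. In 1 the sign turned: RTS0067799 under floor scaling, at -0.0111. The number of mice, the depth of the 24 h sums (58790 to 190198 counts) and the floor level limit what low probes can show.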
